A study of Mus musculus with 8 samples.

Results

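Stress fibre and smooth muscle contractile genes were followed across the cell clusters of cultured white preadipocytes. The 10 genes were Acta2, Tagln, Tagln2, Myl9, Tpm1, Tpm2, Tpm4, Cnn1, Cnn2 and Cald1. They were named by function, with earlier results of these data known. Their entries were read from the cluster marker table by gene symbol. All 10 of the 10 genes had at least 1 entry among the 3903 gene symbols of the table. They held 106 of 120 possible entries (10 genes in 12 clusters), out of 13337 entries in all.

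The cells were preadipocytes from inguinal white adipose tissue (iWAT) of C57BL/6 mice, profiled by droplet single-cell RNA sequencing. Wild type (WT) cells and double knockout (DKO) cells, which are Hmgn1-/- and Hmgn2-/- and so lack a pair of nucleosome-binding proteins, were collected at day 0 and at day 6 of induced browning, with 2 samples for each genotype and day and 8 samples in 4 groups. The donor mice were male and 8 to 12 weeks old. All cells were grown on collagen-coated plates, and differentiation was induced for 4 days with insulin, dexamethasone, IBMX, T3 and rosiglitazone, followed by insulin and T3 alone, so the day 0 cells had not seen the inducers. The duplicates are described as biological, but whether animals were pooled within a culture is not given in the sources used here. Immune, glial and endothelial cells had been removed by the authors before clustering, and none of the 5 immune, 5 endothelial or 4 glial markers looked for had an entry.

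Each entry gives the share of a cluster's cells in which the gene was detected and the same share in all other cells. Since the authors pooled the 8 samples, there is 1 value per gene and cluster, with no replicate, no SD and no test. The fractions are rounded, which leaves an error of 0.05 percentage points on each share. The number of cells and the read depth behind the shares are unknown from the table, and the genotypes and the days could not be compared. Hmgn1 was detected in 92.0% to 98.7% of the cells of clusters 2, 5, 6 and 9 and in 26.1% of those of cluster 4, and Hmgn2 in 48.3% of cluster 6, all over WT and DKO cells together, so these values do not check the genotype labels.

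Stress fibres are bundles of actin filaments on which myosin II pulls, anchored to the matrix through focal adhesions. Tropomyosins lie along the filaments and govern access of myosin, while calponins, caldesmon and transgelins bind and stabilise actin. Smooth muscle and myofibroblasts carry these proteins at high levels, as do fibroblast-like precursors spread on stiff plastic, and adipocyte differentiation is known for the rounding of the cell and the loss of stress fibres. Transcription of many of these genes runs through serum response factor and its actin-sensing coactivators, which act at a motif called the CArG box.

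The CArG box is CCNNNNNNGG with A or T at each of its 6 core positions, and it reads as itself on the other strand, so both strands are searched together. Promoter sequence in RefSeq (GRCm38.p6) was found for 9 of the 10 genes, in 10 windows, since Cald1 has a pair of start sites, and Tagln was not matched. The 250 bases before the start held a box with an unbroken core in 2 of 10 windows (20%), against 1.47% of 32851 windows of the same length. With 1 core position allowed to differ, a choice made after the sequences had been seen, 3 of 10 windows (30%) held a match, against 8.59% of all. Neither count is a test. The 5 matches lie before Myl9, Cnn2 and Acta2. No match was found before Tpm1, Tpm2 and Cnn1, whose detection also differed widely between clusters. Each match is shown in capitals with the 10 bases on each side in lower case, read in the direction of transcription.
Myl9, chr2:156775293-156775322 (+), match from 161 bases before the start, unbroken core: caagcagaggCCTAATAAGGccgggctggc
Myl9, chr2:156775355-156775384 (+), from 99 bases before the start, 1 core position differing: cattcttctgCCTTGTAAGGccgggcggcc
Cnn2, chr10:79988534-79988563 (+), from 56 bases before the start, unbroken core: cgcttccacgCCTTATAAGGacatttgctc
Acta2, chr19:34255438-34255467 (-), from 84 bases before the start, 1 core position differing: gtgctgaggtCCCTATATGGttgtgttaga
Acta2, chr19:34255388-34255417 (-), from 34 bases before the start, 1 core position differing: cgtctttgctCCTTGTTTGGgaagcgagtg
The start sites are those of RefSeq. GENCODE places the 5′ end of the Acta2 gene (chr19:34241090-34255590, minus strand) further upstream, so both Acta2 matches lie within that gene's outer bounds, while the Cnn2 match lies before the GENCODE gene (chr10:79988584-79996062, plus strand). A match is a description of letters and not evidence of binding, and no binding data were used.

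Over all cells, Cald1 was the most widely detected of the 10 genes (89.6%), followed by Tpm4 (85.7%), Tagln2 (75.4%), Tpm1 (72.3%), Tagln (62.4%), Acta2 (61.7%), Tpm2 (58.4%), Cnn2 (53.8%), Myl9 (46.3%) and Cnn1 (18.3%). Neighbours in this order were further apart than their rounding error, which is the only error known. These shares are of cells with the gene detected and not transcript levels.

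**Figure D1:**
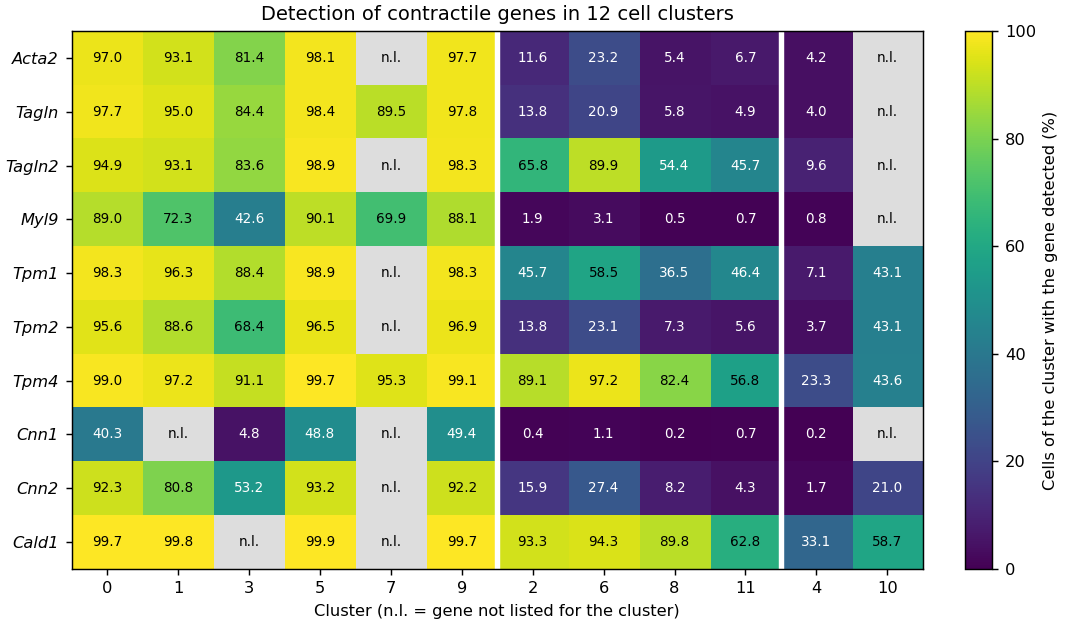
Detection of the 10 contractile genes (rows) in the 12 clusters (columns), as the percent of a cluster's cells in which the gene was detected. Grey cells marked n.l. are genes not listed for that cluster, and white lines divide 3 sets of clusters arranged after the values had been seen. Acta2 runs from 81.4% to 98.1% in the listed clusters of the left set and from 5.4% to 23.2% in the middle set, whereas Tpm4 reaches 97.2% in the middle set.

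For description, after the values had been seen, the clusters were arranged in 3 sets. Clusters 0, 1, 3, 5, 7 and 9 (the left set) made up 60.1% of all cells, and clusters 2, 6, 8 and 11 (the middle set), in which Acta2 was called lower, made up 27.0%. Clusters 4 (9.59% of cells) and 10 (3.22%) were kept apart, because 97.9% and 99.9% of all entries of these clusters, contractile or not, had a lower detection than in the other cells. The sets follow the contractile genes themselves, so the separation between them is a description.

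Acta2, which encodes smooth muscle alpha-actin, was detected in 97.0% of cluster 0, 93.1% of cluster 1, 81.4% of cluster 3, 98.1% of cluster 5 and 97.7% of cluster 9. In the middle set it was detected in 11.6% of cluster 2, 23.2% of cluster 6, 5.4% of cluster 8 and 6.7% of cluster 11. No listed cluster lay between 23.2% and 81.4%. Clusters that missed a minimum of the authors' comparison are not listed, so this gap describes the listed clusters only. Clusters 7 and 10, not listed for Acta2, were computed jointly at 80.2%. Cluster 4 was at 4.2%. The odds of detection, that is detected over undetected cells, were 37.1-fold higher in cluster 5 than in all other cells and 33.0-fold lower in cluster 8. An entry is called higher or lower here where these odds differed at least 2-fold at every value the rounding allows, and all 10 Acta2 entries were called, 5 higher and 5 lower.

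Tagln encodes transgelin, an actin cross-linker that is an early marker of smooth muscle. The share was 97.7% for cluster 0, 95.0% for cluster 1, 84.4% for cluster 3, 98.4% for cluster 5, 89.5% for cluster 7 and 97.8% for cluster 9. In the middle set cluster 2 was at 13.8%, cluster 6 at 20.9%, cluster 8 at 5.8% and cluster 11 at 4.9%, and cluster 4 was at 4.0%. Among the clusters listing both genes, Tagln was high and low in the same ones as Acta2. Of its 11 entries, 6 were called higher and 5 lower. Cluster 10, which does not list Tagln, was computed at 57.6%, between its high and low clusters. The odds were 42.9-fold higher in cluster 5 and 33.5-fold lower in cluster 11 than in the respective other cells.

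Tagln2, the widely expressed relative of transgelin, showed no such gap between the left and middle sets in the clusters listing it. It was detected in 94.9% of cluster 0, 93.1% of cluster 1, 83.6% of cluster 3, 98.9% of cluster 5 and 98.3% of cluster 9. In the middle set it was detected in 65.8% of cluster 2, 89.9% of cluster 6, 54.4% of cluster 8 and 45.7% of cluster 11, so that cluster 6 lay above cluster 3. The entry of cluster 6 was called higher (3.09-fold), while those of clusters 8 (2.76-fold) and 11 (3.72-fold) were called lower. Entries of clusters 2 and 3 were not called.

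**Figure D2:**
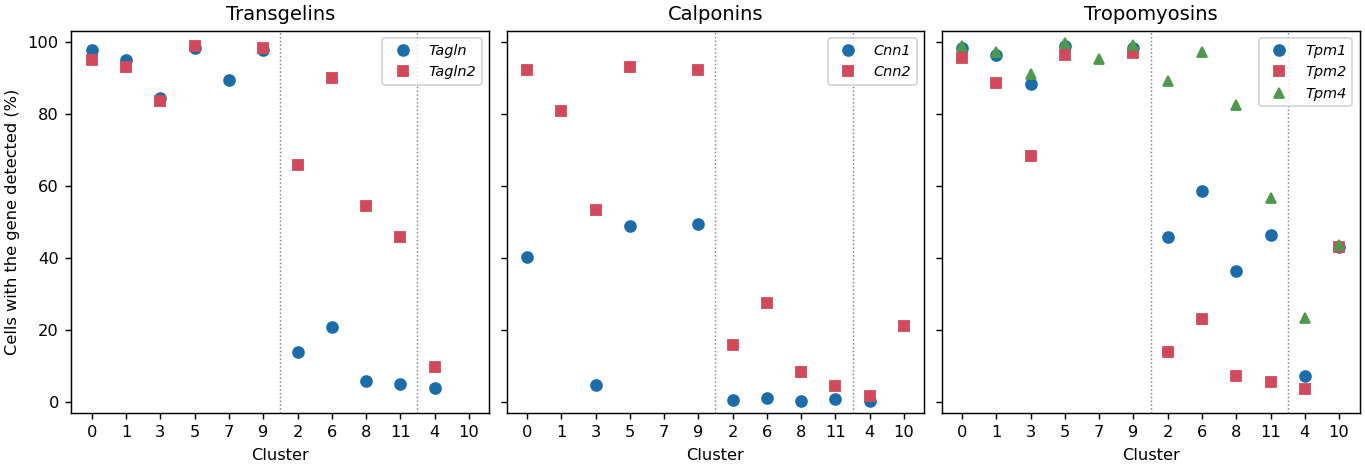
Detection of related genes by cluster, as the percent of cells with the gene detected, for the transgelins (left), calponins (middle) and tropomyosins (right). Each point is a listed cluster, with no replicates behind it, and dotted lines divide the 3 sets of clusters. Tagln and Tagln2 lie close together in the left set and apart in the middle set, where cluster 6 holds Tagln in 20.9% and Tagln2 in 89.9% of cells.

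Myl9 encodes the regulatory light chain through which phosphorylation switches on smooth muscle and non-muscle myosin II. It was detected in 89.0% of cluster 0, 72.3% of cluster 1, 42.6% of cluster 3, 90.1% of cluster 5, 69.9% of cluster 7 and 88.1% of cluster 9. It was close to absent in the middle set, with 1.9% of cluster 2, 3.1% of cluster 6, 0.5% of cluster 8 and 0.7% of cluster 11, and cluster 4 stood at 0.8%. The odds in cluster 8 were 193-fold lower than in all other cells. Cluster 3, which carried Acta2 in most cells, held Myl9 at a share near that of all other cells (46.8%) and was not called.

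The 3 tropomyosin genes differed in how far they followed Acta2. Tpm2, the tropomyosin abundant in smooth muscle, was detected in 68.4% to 96.9% of cells over the 5 listed clusters of the left set and in 13.8% of cluster 2, 23.1% of cluster 6, 7.3% of cluster 8 and 5.6% of cluster 11. Tpm1, whose many isoforms serve muscle and non-muscle filaments alike, was detected in 88.4% to 98.9% over the same 5 clusters. In the middle set Tpm1 remained in 45.7% of cluster 2, 58.5% of cluster 6, 36.5% of cluster 8 and 46.4% of cluster 11. These Tpm1 values stood between those of Tpm2 and Tpm4 in each of the 4 clusters.

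Tpm4, a tropomyosin of the general cytoskeleton, was the only one of the 10 genes listed for all 12 clusters. It was detected in 91.1% to 99.7% of cells in the left set, and in 89.1% of cluster 2, 97.2% of cluster 6, 82.4% of cluster 8 and 56.8% of cluster 11. Clusters 2 and 8 were not called, cluster 6 was called higher (6.22-fold) and cluster 11 lower (4.75-fold). The ranges of the left and middle sets overlapped for Tpm4 and Tagln2. For Cnn1 they lay close, at 4.8% in cluster 3 and 1.1% in cluster 6, and Cald1 is not listed for clusters 3 and 7. The sets were drawn from the Acta2 calls, and overlap was not counted over all genes. Any separation is therefore only a description of these genes.

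Cnn1 encodes basic calponin, which inhibits the actomyosin ATPase and is regarded as a late marker of smooth muscle differentiation. It was detected in 40.3% of cluster 0, 48.8% of cluster 5 and 49.4% of cluster 9, which were its 3 entries called higher. In cluster 3 it was detected in 4.8% of cells (4.90-fold lower odds), although Acta2 was found in 81.4% there. In clusters 2, 6, 8 and 11 the shares were 0.4%, 1.1%, 0.2% and 0.7%. Cnn1 was therefore the gene with the narrowest distribution of the 10 and is not listed for cluster 1, where Acta2 and Tagln exceeded 90%.

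Cnn2, the calponin of many non-muscle cells, was detected in 92.3% of cluster 0, 80.8% of cluster 1, 53.2% of cluster 3, 93.2% of cluster 5 and 92.2% of cluster 9. In the middle set it was detected in 15.9% of cluster 2, 27.4% of cluster 6, 8.2% of cluster 8 and 4.3% of cluster 11. Its entries in these 4 clusters were called lower, as those of Acta2 and Tagln were, by 3.36-fold (cluster 6) to 26.8-fold (cluster 11). Cluster 3 differed from the pattern of Acta2 and Tagln, since its Cnn2 share was near that of all other cells (53.9%) and was not called.

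Cald1 encodes caldesmon, which binds actin, tropomyosin and myosin. It was detected in 99.7% of cluster 0, 99.8% of cluster 1, 99.9% of cluster 5 and 99.7% of cluster 9, and still in 93.3% of cluster 2, 94.3% of cluster 6 and 89.8% of cluster 8. These last 3 entries were not called. Cluster 11 stood lower at 62.8% (5.33-fold lower odds). Shares this close to 100% leave little room to show a difference in level, and the fold in odds of Cald1 in cluster 5 (129-fold) rests on 0.1% of cells without it.

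**Figure D3:**
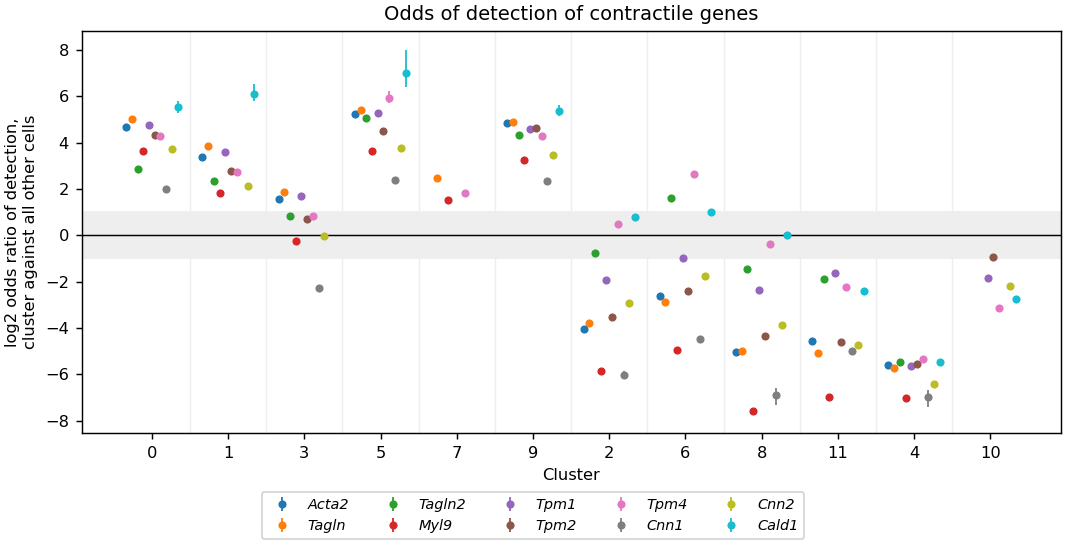
Log2 odds ratio of detection of each contractile gene, cluster against all other cells, for the listed clusters. Points are single pooled values, bars are the interval that rounding of the fractions allows, and the grey band marks differences under 2-fold. In cluster 6, Tpm4 and Tagln2 lie above the band and Myl9 lies lowest, 31.0-fold below all other cells in odds.

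Clusters 5, 6 and 9 permitted a comparison within cells that carry the proliferation marker Mki67, detected in 78.6%, 92.0% and 91.2% of their cells. Fabp4, the adipocyte fatty acid binding protein, was detected in 59.9% of cluster 5, 67.7% of cluster 9 and 99.9% of cluster 6. Acta2 was detected in 98.1% and 97.7% of clusters 5 and 9 and in 23.2% of cluster 6, a difference of 74.9 and 74.5 percentage points. The odds of detection in cluster 5 against cluster 6 were 284-fold higher for Myl9, 233-fold for Tagln, 171-fold for Acta2, 91.8-fold for Tpm2, 85.7-fold for Cnn1, 63.8-fold for Tpm1, 60.4-fold for Cald1 and 36.3-fold for Cnn2. They were 10.1-fold higher for Tagln2 and 9.57-fold for Tpm4 (rounding interval 8.05 to 11.7), on differences of 9.0 and 2.5 percentage points. The Cald1 value rests on a difference of 5.6 percentage points near 100%, with a rounding interval of 39.9 to 122. In cluster 9 against cluster 6 the odds were 231-fold higher for Myl9, 168-fold for Tagln, 141-fold for Acta2, 104-fold for Tpm2, 87.8-fold for Cnn1, 41.0-fold for Tpm1 and 31.3-fold for Cnn2. For Cald1 they were 20.1-fold higher, for Tagln2 6.50-fold and for Tpm4 3.17-fold. All 10 genes were thus higher in odds in clusters 5 and 9 than in cluster 6. Tagln2 and Tpm4 differed least in odds in both comparisons. In percentage points Cald1 (5.6 and 5.4) differed less than Tagln2 (9.0 and 8.4). The median detection over all entries was also higher in clusters 5 (80.2%) and 9 (84.5%) than in cluster 6 (70.0%). The share of all genes that differ in this direction was not computed, so the count of 10 is not a result about contractile genes.

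Read by cluster, the calls of the 10 genes were set against the share of all entries called in the same direction. In cluster 0 all 10 listed genes were called higher, against 71.8% of all entries. In cluster 1 the 9 listed genes were called higher (65.2% of all entries), in cluster 5 all 10 (77.2%), in cluster 7 the 3 listed (67.6%) and in cluster 9 all 10 (81.9%). Most entries of these clusters were higher whatever the gene, so the count alone says little there. The median log2 odds ratio of the contractile genes was 4.31 against 1.69 for all entries (cluster 0), 2.76 against 1.48 (cluster 1), 5.13 against 2.43 (cluster 5) and 4.46 against 2.33 (cluster 9). In cluster 7, with 3 genes listed, the medians were closer, at 1.83 against 1.45.

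The middle set was drawn from the Acta2 calls, so a lower call of Acta2 in each of its clusters was given in advance. The counts that follow describe these clusters and are not a test. In cluster 2, 7 of 10 genes were called lower, against 25.8% of all entries. In cluster 6, 6 of 10 were called lower (11.0% of all entries) and 2 higher (59.5%). In cluster 8, 8 of 10 were called lower (38.2%), and in cluster 11 all 10 were (25.2%). The median log2 odds ratios were -3.22 against -0.05 for all entries (cluster 2), -2.07 against 1.97 (cluster 6), -4.11 against -0.50 (cluster 8) and -4.58 against 0.77 (cluster 11). In cluster 6 and cluster 11 the contractile genes therefore had a median below 0 where that of all entries was above 0.

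Cluster 3 was mixed, with 3 of 9 genes called higher (50.1% of all entries), 1 called lower (23.4%) and 5 not called, and its medians of 0.81 and 1.01 were close. Acta2, Tagln and Tpm1 were the 3 called higher. Over the 12 clusters, 47 of 106 entries (44.3%) were called higher, against 45.1% of all entries, and 46 (43.4%) were called lower, against 34.7%. Higher calls were thus near the background over the whole table, and lower calls were more frequent than it. Without clusters 4 and 10, 35.2% of the contractile entries were called lower, against 18.4% of all entries, and 51.6% higher, against 56.8%.

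**Figure D4:**
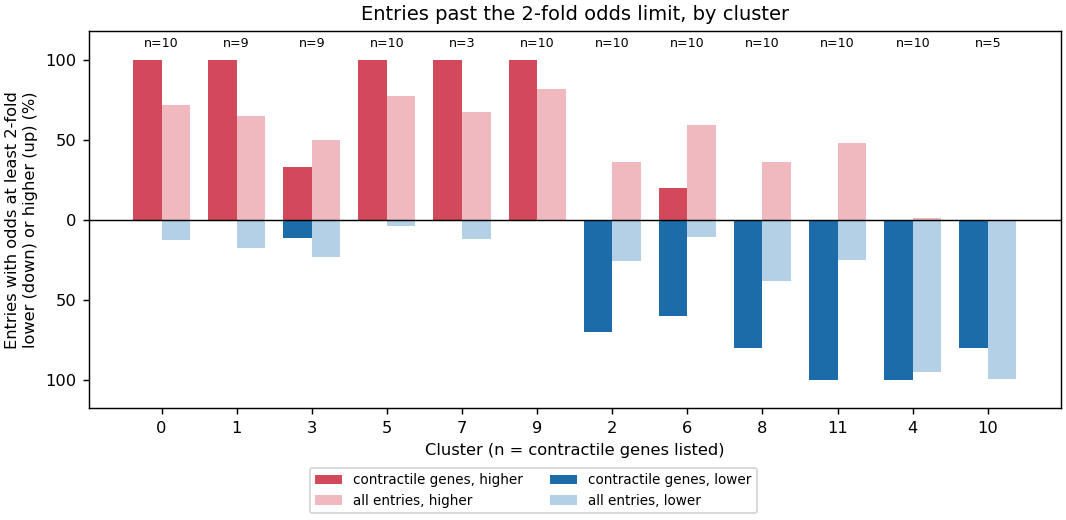
Share of entries with odds of detection at least 2-fold higher (bars up) or lower (bars down) in a cluster than in all other cells, for the contractile genes (dark) and for all entries (light). The number of contractile genes listed stands above each cluster. In cluster 11 all 10 listed genes were called lower, against 25.2% of all entries, and in cluster 6 the figures were 6 of 10 against 11.0%.

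In cluster 4 all 10 genes were called lower, against 95.3% of all entries, and in cluster 10, 4 of 5 listed genes were called lower, against 99.6%. These counts are at the background of the clusters and are not a result about contractile genes. In cluster 4 even Cald1 was detected in only 33.1% and Tpm4 in 23.3% of cells, and the median detection over all entries was 10.8%. In cluster 10 the contractile genes stood less low than other entries, with Cald1 in 58.7%, Tpm4 in 43.6%, Tpm1 and Tpm2 each in 43.1% and Cnn2 in 21.0% of cells, against a median of 8.10% over all its entries. The median log2 odds ratio was -2.20 for the 5 contractile genes and -4.51 for all entries of cluster 10. The read depth of these clusters is unknown, and its part in the low values was not tested.

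A gene is missing from a cluster where it missed a minimum of the authors' comparison, which does not mean that it was at 0. From the cluster shares and the detection over all cells, the detection in the clusters that do not list a gene could be computed jointly, with an interval from rounding only. For cluster 7 this gave 92.2% (90.9% to 93.5%) for Tpm1, 78.5% (76.9% to 80.1%) for Tpm2 and 70.4% (69.0% to 71.7%) for Cnn2. Each of these cluster 7 values lay between those of clusters 3 and 1. For cluster 10 the joint value was 57.6% (54.8% to 60.4%) for Tagln and 20.1% (17.5% to 22.6%) for Myl9. Over clusters 7 and 10 together, Acta2 was detected in 80.2% (79.2% to 81.2%) and Tagln2 in 60.3% (59.4% to 61.1%). Cald1 was at 99.1% over clusters 3 and 7, and Cnn1 at 19.3% over clusters 1, 7 and 10.

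Low shares in droplet data can include free RNA. With immune, glial and endothelial cells removed, the table holds no cell type that should lack these genes, so no background share could be taken from such cells. Acta2 and Tagln stood at 4.0% to 6.7% in clusters 4, 8 and 11, and Myl9 and Cnn1 at 0.2% to 0.8% in the same clusters. No level this low was read as expression or as a difference between these clusters. The part of free RNA was not tested.

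Markers that define mature smooth muscle were mostly without an entry. Of 10 such genes, Actg2, Smtn, Lmod1 and Mylk had entries, and Myh11, the smooth muscle myosin heavy chain, and Des, the muscle intermediate filament protein desmin, had none. Their 22 entries were called higher 7 times (45.1% of all entries) and lower 15 times (34.7%). Lmod1, which nucleates actin filaments in smooth muscle, was detected in 42.8% of cluster 0 and 43.4% of cluster 5, and in 0.3% of cluster 2 and 0.2% of cluster 8, close to the shares of Cnn1. Actg2, the gamma-actin of visceral smooth muscle, was listed only where it was low, from 0.1% in cluster 8 to 4.2% in cluster 10. Mylk was called higher in clusters 1 (63.4%), 5 (55.8%), 7 (55.8%) and 9 (58.8%). It was called lower in clusters 2 (9.6%), 4 (2.7%) and 8 (9.4%). Smtn was listed only for cluster 9 (46.3%), where it was called higher. Of 7 mural cell markers 2 had entries, with 3 called higher and 3 lower of 7 (45.1% and 34.7% of all entries). Pdgfrb, the receptor that marks pericytes but also many fibroblasts, was detected in 88.6% of cluster 1 and 12.4% of cluster 11. Abcc9, a potassium channel subunit, was listed only for cluster 7 (21.1%). No cluster was named as smooth muscle or mural cells.

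The general stress fibre genes followed Acta2 in part. All 22 genes of a list of actins, filamins, actinins, myosins and adhesion proteins had an entry. Of their 179 entries 86 were called higher (45.1% of all entries), 54 lower (34.7%) and 39 were not called. In the left set, 21 of 21 listed genes were called higher in cluster 0 (71.8% of all entries) and 10 of 10 in cluster 1 (65.2%). The counts were 17 of 17 in cluster 5 (77.2%), 15 of 15 in cluster 9 (81.9%) and 7 of 8 in cluster 7 (67.6%). In cluster 3, 2 of 6 were called higher (50.1%), and 0 were called lower in the left set. Most entries of clusters 0, 1, 5, 7 and 9 were higher whatever the gene, so these counts alone say little. In cluster 2, 6 of 16 were called lower (25.8% of all entries) and 2 higher (36.4%). In cluster 8, 8 of 17 were called lower (38.2%) and 3 higher (35.9%). In cluster 6, 4 of 17 were called higher (59.5% of all entries) and 0 lower (11.0%), and in cluster 11, 5 of 22 were called higher (48.1%) and 10 lower (25.2%). Actn1, an alpha-actinin that cross-links the filaments, was picked after its values were seen. It was detected in 94.5% of cluster 0 and in 31.0%, 22.2% and 21.8% of clusters 2, 8 and 11. Cluster 6 (51.6%) was not called. Other genes of the list, likewise picked after their values were seen, differed from Actn1. Actn4, another alpha-actinin, was called higher in cluster 11 (84.4%) and not called in clusters 2 (62.2%) and 8 (62.6%). Vcl was called higher in cluster 11 (83.1%), not called in cluster 8 (45.3%) and lower in cluster 2 (43.1%). The 2 genes named by the rule were detected in nearly all cells and leave little room to differ. Actb, cytoplasmic beta-actin, was detected in 99.5% of cluster 2, 99.8% of clusters 8 and 11 and 67.0% of cluster 4. Myl6, the essential light chain that partners the Myl9 type, was detected in 98.0% of clusters 2 and 8 and 99.8% of cluster 11, where Myl9 was at 1.9%, 0.5% and 0.7%.

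Regulators of the contractile genes were unevenly listed. Of 15 symbols, which include older names of the same genes, 7 had entries, and Srf and Myocd had none. Of the 32 entries, 10 were called higher (45.1% of all entries), 10 lower (34.7%) and 12 were not called. Rhoa, the GTPase that drives stress fibre assembly, was detected in 97.5% of cluster 0, 87.0% of cluster 2, 85.2% of cluster 8 and 96.6% of cluster 11. Rock2, a kinase acting downstream of it, was detected in 94.9% of cluster 0, 75.3% of cluster 2, 71.9% of cluster 8 and 85.1% of cluster 11. The shares of Rhoa and Rock2 moved far less than that of Acta2 between the same clusters. Other genes of the list did differ. Tgfb1 was called lower in clusters 8 (13.9%) and 11 (7.2%), and Tgfbr1 was called higher in clusters 2 (68.4%) and 6 (70.5%).

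Of 9 symbols of secreted and nuclear proteins that respond to cell tension, 7 had entries. Of the 59 entries, 25 were called higher (45.1% of all entries), 27 lower (34.7%) and 7 were not called. Ankrd1, a nuclear ankyrin repeat protein, was detected in 29.5% of cluster 5 and 26.3% of cluster 9, and was listed at 0.6% in cluster 2 and at 0 in cluster 8. Fn1, the matrix protein fibronectin, was detected in 93.7% of cluster 8 and was not called there. In cluster 11 it was detected in 80.9% and was called lower (3.91-fold). All 6 listed genes of this list were called lower in cluster 11 (25.2% of all entries), and 4 of 6 in cluster 8 (38.2%).

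Adipocyte markers moved across the same clusters, and precursor markers did so unevenly. Of the adipocyte markers, 9 of 10 had entries. Of the 79 entries, 36 were called higher (45.1% of all entries), 33 lower (34.7%) and 10 were not called. Fabp4 was detected in 99.6% of cluster 2, 98.5% of cluster 4, 99.9% of cluster 6 and 100% of clusters 8 and 11. In the left set it was called higher in cluster 7 (92.6%) and stood at 52.6% to 67.7% in clusters 0, 1, 3, 5 and 9. Lpl, another of these markers, was called higher in clusters 3 and 7 (98.5% each) as well as in clusters 8 and 11 (100% each). Plin1, the lipid droplet coat protein perilipin, was detected in 27.8% of cluster 2, 45.5% of cluster 6, 50.6% of cluster 8 and 99.8% of cluster 11, and in 1.3% of cluster 0 and 1.9% of cluster 5. Cd36, a fatty acid transporter, was detected in 68.4%, 78.2%, 87.7% and 99.8% of clusters 2, 6, 8 and 11 and in 2.5% of cluster 0. The clusters with low Acta2 were thus those with high Cd36 among the clusters listing both. Cluster 7 lists neither gene. The part of differentiation state or of day in the contractile values cannot be told apart from the clusters here.

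Of the precursor markers, 5 of 7 had entries. Of the 35 entries, 13 were called higher (45.1% of all entries), 13 lower (34.7%) and 9 were not called. F3, tissue factor, was detected in 99.1% of cluster 1, 55.4% of cluster 2 and 38.1% of cluster 11. Itgb1, the beta-1 integrin that anchors stress fibres, was detected in 98.6%, 89.6% and 87.8% of these clusters. Itgb1 was not called in clusters 2, 8 and 11 and was called higher in cluster 6 (96.3%). Pdgfra was called higher in clusters 2 (79.5%) and 7 (80.0%) and lower in cluster 11 (21.9%). Mmp3 was called higher in cluster 1 (87.7%) and not called in cluster 0 (45.0%). Of the proliferation markers, 8 of 8 had entries. Of the 77 entries, 23 were called higher (45.1% of all entries), 46 lower (34.7%) and 8 were not called. Birc5, which acts in chromosome segregation, was detected in 79.9% of cluster 5, 88.3% of cluster 6 and 95.5% of cluster 9, and Top2a, the topoisomerase of dividing cells, in 90.7%, 95.3% and 78.9%. These 3 clusters spanned high and low Acta2, as given above.

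Across the clusters that list a pair, the logit of detection correlated between the contractile genes with a Pearson r of 0.829 (Myl9 and Tpm4) to 0.999 (Acta2 and Tagln), with a median of 0.955 over 45 pairs and 8 to 11 clusters per pair. The points share cells, libraries and depth, and the low values of cluster 4 enter most pairs, so these coefficients are a description. Outside the 10 genes, the pattern most like Acta2 among 707 genes compared was that of Nexn, which encodes the actin-binding protein nexilin (r = 0.996 over 10 clusters), then Tm4sf1 (0.994 over 8) and Anxa3 (0.992 over 9). For Tagln, among 764 genes, these were Ccn2, also called connective tissue growth factor (0.994 over 10), Nexn (0.994 over 10) and Anxa3 (0.994 over 9). Nexn was detected in 67.8% of cluster 0, 73.7% of cluster 5 and 68.0% of cluster 9, and in 1.2%, 2.4%, 0.8% and 1.3% of clusters 2, 6, 8 and 11. Ccn2 was detected in 86.0% of cluster 0, 87.5% of cluster 5 and 83.3% of cluster 9, and in 8.6%, 11.7%, 2.8% and 1.6% of those same clusters.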

How the data were processed

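The 8 samples were droplet captures of cultured iWAT preadipocytes, 2 for each genotype and day. Per the study's methods and the submitters' processing notes, the authors mapped reads to mm10 with Cell Ranger 6.0.0, aggregated the captures at equal read depth, filtered cells, removed immune, glial and endothelial cells, clustered in Seurat and compared each cluster with all remaining cells. Doublet removal and the counting of reads shared by related genes are not given in the sources used here. The deposited detection values are the authors' fractions of cells with the gene detected, inside and outside a cluster, pooled over all samples, and the larger one was never under 10.1%. The fold changes and p-values deposited beside them are the authors' own comparisons and were not used. Columns of other samples numbered 0. Spreadsheet software had turned symbols into dates in 35 entries, none of a gene named here.

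Odds of detection were computed with Python 3.11.15, numpy 2.4.6, pandas 2.3.3 and matplotlib 3.10.9, with fractions of 0 and 1 set inside by the rounding error (0.05 percentage points). Cluster shares came from a least-squares solution on the 10 genes with an entry in each cluster and summed to 99.9%, a step tested on simulated data. Coordinates are of GRCm38, the build of mm10, with gene bounds from GENCODE. The genes and lists were chosen with earlier results of these data known. From each list, the 2 genes with the largest odds ratio in either direction outside clusters 4 and 10 were named. Also named were Hmgn1, Hmgn2 and the 3 genes most like Acta2 and Tagln over at least 6 clusters. Mki67, Fabp4, Lpl, Pdgfra, Mmp3, Actn1, Actn4, Vcl, Tgfb1, Tgfbr1, Mylk, Smtn and genes without an entry were added after their values were seen. A planned comparison of protein sequences was not made.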

Additional observations from a re-analysis of the deposited data

How the results depend on the processing

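No paired analysis was possible because all detection shares are pooled over the samples, and for the same reason no sample could be left out. The counts of calls were repeated with a minimum of 1.5-fold and 4-fold, with a difference of at least 10 percentage points, with a 2-fold ratio of the negative log of the undetected share, without allowance for rounding and without clusters 4 and 10. Of these 24 counts 23 stayed within 1.5 times the reported count. The contractile entries called higher ranged from 39 to 52 of 106 under the fold limits and those called lower from 40 to 49. Without clusters 4 and 10, 1940 of 10547 entries in all (18.4%) were called lower, since these clusters hold most of the lower calls, and 32 of 91 contractile entries (35.2%) were. Detection over all cells moved by at most 0.00208 percentage points in 20 alternatives for the cluster shares, and detection in clusters without an entry by at most 0.329 percentage points in 18. The number of cells per cluster is unknown, so counting error could not be given.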
